A study of Mus musculus with 12 samples.

Results

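The genes that copy and divide the genome were examined in the neocortex of mouse embryos on embryonic day E13.5, as the ratio of rostral over caudal tissue. The set was 59 genes chosen by their known roles, 22 of DNA replication, 8 that govern entry into S phase and 29 of mitosis. Earlier results of these data were known when the set was chosen. A probe carried the symbol of 55 of them (61 probes), and 53 could be tested, among 14418 features and 11490 named genes in all. Mcm7, Ccnb1, Cdc20 and Smc4 had no probe with their symbol here. Ccnd1 and Nek2 had values in too few C57 pools.

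Each sample was a pool of tissue from the rostral or the caudal end of the neocortex, 3 embryos per pool by the labels and at least 2 by the series' design text. Of the 6 pools, 3 came from MF1, an outbred strain, and 3 from C57, an inbred one (C57Bl\6 in the design text), and the labels name no treatment or engineered allele. Rostral and caudal cDNA of a pool, amplified from total RNA, competed on arrays that read the dyes Cy3 and Cy5, and a pool had 2 arrays that differed in which dye the rostral cDNA carried. Values are given as log2 of rostral over caudal signal, so 0 means equal signal, and each is the mean of both dye orientations of a pool unless said otherwise.

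At this age the wall of the cortex holds a zone of dividing progenitors, next to which the first neurons settle. Progenitors copy their DNA in S phase after the MCM helicase has been loaded at replication origins, and they divide in mitosis, which the kinase Cdk1 with its cyclins starts and the anaphase promoting complex ends. E2F factors drive many S phase genes, while mitotic genes are commonly bound through a CHR element and CCAAT boxes, the sites of the DREAM and MuvB complexes and of NF-Y. Neurons have left the cycle, while dividing cells of vessels, meninges and blood can also carry this RNA in bulk tissue. In pooled tissue, fewer dividing cells and less of the RNA per dividing cell cannot be told apart.

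Arrays lacked a value for 4.55% to 18.2% of their probes. The mean share lacking was 7.73% ± 2.72 in MF1, and in C57 it was 14.6% ± 2.24 (SD, n = 6 arrays each). Of the values of member probes, 2 of 366 were missing in MF1 and 4 of 366 in C57. The channel used as numerator was inferred, so which end of the cortex is the higher one is likely but not known, and every sign here would turn with it. Each array was centred on its median. Without centring the median of all features was -0.18 in place of 0.01 and that of the tested members -0.0018 in place of 0.19, and 24 of the 53 were above 0, so a ratio above 0 means above the median of the array. The distance between the members and all features was 0.18 either way. Centring takes the same constant from every value of an array, so this distance had to stay and is no check of the shift. Whether pools of 1 strain were separate litters is not in the labels, so p-values measure the spread between these pools, which may be partly technical.

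Most of the tested genes had ratios a little above those of other genes on the arrays. Of the 53, 43 (81.1%) had a mean ratio above 0 over both strains, where 51.6% of all features did, and 10 had one below 0. Their median was 0.19, against 0.01 for all features. By class, 20 of 21 replication genes and 21 of 25 mitosis genes were above 0, with medians of 0.20 and 0.19, while 2 of the 7 G1/S regulators were, with a median of -0.07. Above 0 in 6 of 6 pools were 12 of the 52 members with all pools measured (23.1%), against 3.47% of features with all pools, and 1 was below 0 in 6 of 6, against 2.5%. They were 5 replication genes (Rrm2, Tyms, Mcm2, Mcm3 and Mcm4), the cyclin Ccne1 and 6 mitosis genes (Pttg1, Ccna2, Bub1b, Bub3, Smc2 and Birc5). The gene below 0 was Aurkb.

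No single member passed the test over all features. With limma on pool means, 0 of 14418 features (0%) had an adjusted p under 0.05 for both strains together, and the members' adjusted p ran from 0.443 to 0.968. At an unadjusted p under 0.05, 8 members lay above 0, where 4.34% of all features did, and 0 below, where 4.64% did. These were Rrm2, Tyms, Mcm3, Lig1, Ccne1, Pttg1, Ccna2 and Tpx2. Their number was 4 without MF1 pool 3, 5 without any other single pool and 0 without centring. It was 4 with rostral RNA in Cy3 alone and 11 with it in Cy5 alone. In limma's fit of all 12 arrays, with pool as random block and a dye term for each strain, it was 14. The members varied less between pools than most probes, with a median SD of 0.24 against 0.40.

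**Figure D1:**
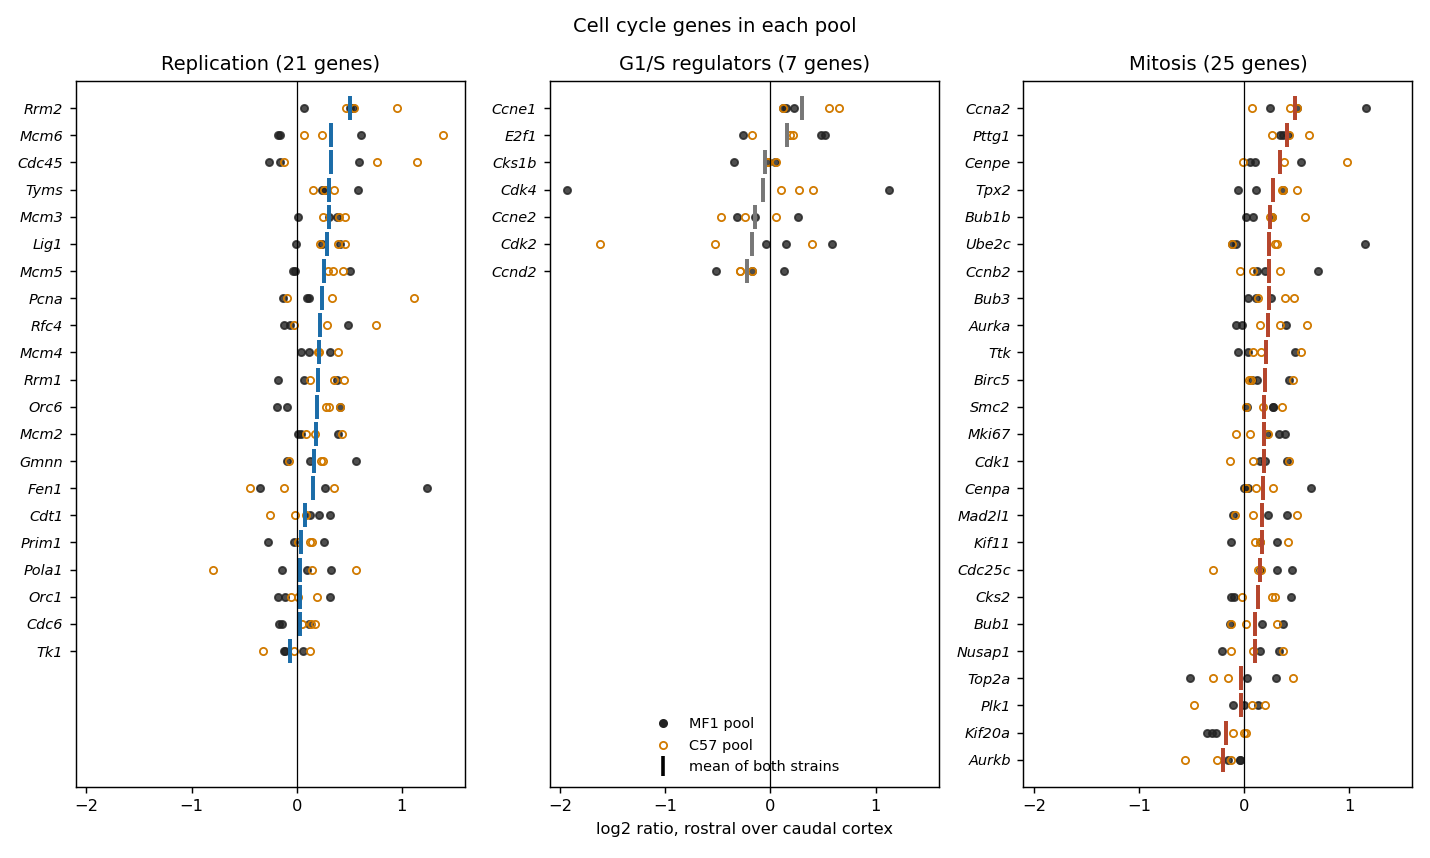
Log2 ratio of rostral over caudal cortex (x axis, relative to the median of each array) of each tested gene (y axis) in the 6 pools, in 3 panels by class; filled points are MF1 pools, open points C57 pools and bars the mean of both strains. The bars of 20 of 21 replication genes and 21 of 25 mitosis genes lie right of 0, and for most genes the pools spread over both sides of it.

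Rrm2 had the highest mean of the replication genes and Tk1 the lowest, and both serve the supply of deoxynucleotides. Rrm2, the S phase subunit of the reductase that makes deoxynucleotides, had ratios of 0.07, 0.51 and 0.54 in MF1 pools 1 to 3 and of 0.95, 0.54 and 0.47 in C57 pools 1 to 3. All pools lay above 0, with MF1 pool 1 close to it. The mean was 0.51 ± 0.28 (SD, n = 6), a 1.43-fold ratio with a 95% interval of 0.21 to 0.82 on the log2 scale (limma, adjusted p = 0.443). Tyms, thymidylate synthase, had ratios of 0.27, 0.24 and 0.59 in MF1 and of 0.35, 0.26 and 0.15 in C57. The strains overlapped, and the mean was 0.31 ± 0.15 (limma, adjusted p = 0.507). The 2 arrays of a pool lay on opposite sides of 0 in MF1 pools 1 and 2 and in C57 pool 3. In MF1 pool 1, for example, they were at -0.39 (Cy3) and 0.94 (Cy5). Over all pools Tyms was at 0.10 with rostral RNA in Cy3 and at 0.52 in Cy5. Rrm1, the large reductase subunit, averaged 0.20 and was below 0 in MF1 pool 2 alone, at -0.18. Tk1, the thymidine salvage kinase, was the replication gene below 0, at -0.12, 0.06 and -0.11 in MF1 and -0.32, 0.12 and -0.03 in C57, a mean of -0.07 ± 0.16 (limma, adjusted p = 0.878).

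The 5 measured subunits of the MCM helicase, which unwinds DNA at the fork, had means from 0.19 to 0.33. Mcm3 had ratios of 0.31, 0.02 and 0.38 in MF1 and of 0.46, 0.41 and 0.25 in C57, a mean of 0.30 ± 0.16 (limma, adjusted p = 0.511). Mcm4 had 0.32, 0.04 and 0.12 in MF1 and 0.20, 0.39 and 0.21 in C57, a mean of 0.21 ± 0.13 (limma, adjusted p = 0.597). Mcm2 had 0.39, 0.04 and 0.01 in MF1 and 0.17, 0.09 and 0.43 in C57, a mean of 0.19 ± 0.18 (limma, adjusted p = 0.657), which was -0.000083 without centring. In all 3 genes MF1 pool 2 lay close to 0. The mean of Mcm5 was 0.26, with its probes at 0.19 and 0.32. The highest MCM mean, that of Mcm6 at 0.33 ± 0.60, rested on C57 pool 1 at 1.39, while MF1 pools 1 and 2 were at -0.16 and -0.18. The arrays of that C57 pool gave -0.27 with rostral RNA in Cy3 and 3.05 in Cy5, and over all pools Mcm6 was at -0.32 in Cy3 and 0.98 in Cy5.

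Genes of origin licensing and firing had means from 0.03 to 0.33, 6 of 6 above 0 and none in every pool. Among them Orc1, Orc6, Cdc6 and Cdt1 take part in loading the helicase, Cdc45 in activating it, and Gmnn, geminin, blocks loading by binding Cdt1. The highest of these means was that of Cdc45, at 0.33 ± 0.59 with 3 of 6 pools below 0. Its sign differed by dye, at -0.08 in Cy3 and 0.73 in Cy5. The value of C57 pool 3, 1.15, averaged arrays at -0.41 (Cy3) and 2.70 (Cy5). Genes of DNA synthesis (Pcna, Pola1, Prim1, Rfc4, Fen1 and Lig1) likewise had 6 of 6 means above 0, from 0.03 to 0.29. Lig1, the ligase that joins Okazaki fragments, had the highest of these at 0.29 ± 0.18, with MF1 pool 3 at -0.01 and the other pools from 0.22 to 0.46 (limma, adjusted p = 0.538). Single pools moved some of these means. Pcna, the sliding clamp, reached 1.12 in C57 pool 3 against -0.13 to 0.34 elsewhere, a height seen on both its arrays (1.05 and 1.19). The flap nuclease Fen1 reached 1.24 in MF1 pool 2 against -0.45 to 0.36 elsewhere, and its sign differed by dye, at -0.34 in Cy3 and 0.66 in Cy5.

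Promoter windows of the replication genes were read from RefSeq on the mouse build GRCm38.p6, from 250 bases before to 50 after the start of a transcript. Those of Mcm3 (chr1:20820263-20820562, minus strand) and Rrm2 (chr12:24708004-24708303, plus strand) are shown because these genes were above 0 in 6 of 6 pools with unlike windows. Capitals mark every match, on either strand, to the CHR element TTTGAA, to CCAAT or to an E2F motif (TTCGCGC or TTGGCGC or TTCCCGC).
Mcm3: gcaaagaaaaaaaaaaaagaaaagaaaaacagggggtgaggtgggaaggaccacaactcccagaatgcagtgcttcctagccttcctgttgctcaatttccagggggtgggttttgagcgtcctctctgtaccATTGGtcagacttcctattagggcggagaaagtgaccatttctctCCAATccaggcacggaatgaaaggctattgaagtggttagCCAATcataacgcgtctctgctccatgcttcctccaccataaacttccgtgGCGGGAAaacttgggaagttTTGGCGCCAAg
Rrm2: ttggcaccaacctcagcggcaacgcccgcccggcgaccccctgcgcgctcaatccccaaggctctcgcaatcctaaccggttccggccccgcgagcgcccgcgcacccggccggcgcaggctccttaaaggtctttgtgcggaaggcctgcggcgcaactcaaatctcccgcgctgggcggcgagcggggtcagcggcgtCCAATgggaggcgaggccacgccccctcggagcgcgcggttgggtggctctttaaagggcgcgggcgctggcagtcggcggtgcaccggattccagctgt
The Mcm3 window held 3 E2F matches and 3 CCAAT boxes, and the last run of capitals is read as an E2F match on both strands. The Rrm2 window held 1 CCAAT box and no match to these E2F letters.

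Of the regulators of the step from G1 to S, 5 of 7 had means below 0. Ccne1, the cyclin that activates Cdk2 at the start of S phase, had ratios of 0.23, 0.12 and 0.15 in MF1 and of 0.12, 0.65 and 0.55 in C57. All were above 0, with C57 pools 2 and 3 standing higher than the rest, and the mean was 0.30 ± 0.24 (limma, adjusted p = 0.532). Ccnd2, a D-type cyclin of cortical progenitors, had -0.52, -0.18 and 0.13 in MF1 and -0.29, -0.17 and -0.29 in C57, a mean of -0.22 ± 0.21 (limma, adjusted p = 0.628). Its probes averaged -0.08 and -0.36. E2f1, a transcription factor of S phase genes, had 0.52, 0.48 and -0.26 in MF1 and -0.18, 0.22 and 0.19 in C57, and its mean of 0.16 ± 0.33 (limma, adjusted p = 0.765) was -0.03 without centring. Ccne2, the other E-type cyclin, had -0.14, -0.32 and 0.26 in MF1 and -0.24, -0.47 and 0.05 in C57, a mean of -0.14 ± 0.26 (limma, adjusted p = 0.765).

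The kinases of this step had the widest spread. Cdk4, the partner of D-type cyclins, was at 1.13 in MF1 pool 1 and at -1.94 in MF1 pool 3, had no value in MF1 pool 2, and lay between 0.10 and 0.40 in C57. The value of MF1 pool 3 averaged arrays at 0.34 (Cy3) and -4.21 (Cy5). Cdk2 ran from -1.62 in C57 pool 2, the mean of arrays at -4.52 (Cy3) and 1.28 (Cy5), to 0.59 in MF1 pool 1. The lowest value of each kinase thus rests on 1 array, with the dye-swapped partner above 0. Cdk2 was also at -0.53 in C57 pool 1, with both arrays below 0 (-1.02 in Cy3 and -0.03 in Cy5). Cks1b, a small Cdk subunit, averaged -0.06, with its probes on opposite sides at 0.19 and -0.37. For Ccnd1, a D-type cyclin with a single C57 pool, the ratios were 0.45, 0.36 and 0.86 in MF1 and 0.77 in C57 pool 3, all above 0 and without a test. These genes gave the G1/S class a median with no steady sign, from -0.18 in C57 pool 1 to 0.23 in MF1 pool 1.

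Mitosis genes were led by securin and cyclin A. Pttg1, securin, which holds separase inactive until anaphase, had ratios of 0.34, 0.41 and 0.37 in MF1 and of 0.61, 0.42 and 0.26 in C57. It was the member with the narrowest spread, above 0 on 12 of 12 arrays, with a mean of 0.40 ± 0.12 (SD, n = 6), a 1.32-fold ratio with a 95% interval of 0.15 to 0.65 (limma, adjusted p = 0.449). Ccna2, the cyclin of S phase and early mitosis, had 1.16, 0.50 and 0.25 in MF1 and 0.07, 0.50 and 0.44 in C57. The mean of 0.49 ± 0.37, a 1.40-fold ratio, took in 1 pool above 1 and 1 near 0 (limma, adjusted p = 0.484). Ccnb2, the B-type cyclin measured here, averaged 0.24, and Cdk1, its kinase partner, 0.19. Ube2c, a ubiquitin conjugating enzyme of the anaphase promoting complex, averaged 0.24 ± 0.49, with MF1 pool 3 at 1.15 and the other pools between -0.12 and 0.32.

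The spindle checkpoint, which delays anaphase until chromosomes are attached, had 5 of 5 measured genes (Bub1, Bub1b, Bub3, Mad2l1 and Ttk) above 0, with means from 0.10 to 0.24. Bub1b had ratios of 0.08, 0.02 and 0.26 in MF1 and of 0.27, 0.24 and 0.58 in C57, a mean of 0.24 ± 0.20 (limma, adjusted p = 0.579). Bub3 had 0.03, 0.11 and 0.25 in MF1 and 0.47, 0.13 and 0.39 in C57, a mean of 0.23 ± 0.17 (limma, adjusted p = 0.585). In both genes MF1 pools 1 and 2 were the lowest. Kinesins and spindle proteins had 4 of 5 above 0, among them Tpx2, an activator of Aurka on the spindle, at 0.28 ± 0.21 with MF1 pool 1 at -0.06 (limma, adjusted p = 0.538), and Cenpe, a kinetochore motor, at 0.34 ± 0.38. Among genes of chromosome structure Smc2, a condensin subunit, had 0.27, 0.02 and 0.27 in MF1 and 0.36, 0.18 and 0.02 in C57, a mean of 0.19 ± 0.14 (limma, adjusted p = 0.644) that was -0.00058 without centring. Birc5, survivin, had 0.12, 0.07 and 0.43 in MF1 and 0.46, 0.06 and 0.04 in C57, a mean of 0.20 ± 0.19 (limma, adjusted p = 0.652). Mki67, the antigen Ki-67 that coats mitotic chromosomes, averaged 0.19 and was below 0 in C57 pool 1 alone, at -0.08.

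Mitotic kinases were split. Aurkb, the kinase of the chromosomal passenger complex, had -0.04, -0.04 and -0.16 in MF1 and -0.12, -0.26 and -0.56 in C57, a mean of -0.20 ± 0.20 (limma, adjusted p = 0.628). Its sign differed by dye, with -0.55 over the arrays with rostral RNA in Cy3 and 0.16 over those with it in Cy5. Aurka, the kinase of the spindle poles, averaged 0.23 ± 0.26. The probes of Plk1, a kinase of mitotic entry, lay on opposite sides at 0.20 and -0.26. Kif20a, a kinesin of cytokinesis, had -0.35, -0.27 and -0.30 in MF1 and -0.01, 0.02 and -0.11 in C57. Its mean was -0.31 in MF1 and -0.03 in C57, with an adjusted p of 0.948 in limma for the strain difference. Over both strains the mean was -0.17 ± 0.16 (limma, adjusted p = 0.645), at -0.34 with rostral RNA in Cy3 and -0.0005 in Cy5. Top2a, the topoisomerase that separates chromatids, averaged -0.03 ± 0.37, with probe means of -0.05 and 0.00. Its probes differed within pools, at 0.24 and -0.54 in C57 pool 1 and at -0.29 and 1.22 in C57 pool 2. Nek2, a centrosome kinase without enough C57 pools for the test, had 0.78, 0.00 and -0.10 in MF1 and 0.88 in C57 pool 3.

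Promoter windows of 3 mitosis genes are shown with the same capitals: those of Bub3 (chr7:131560120-131560419, plus strand) and Bub1b (chr2:118597961-118598260, plus strand), both above 0 in 6 of 6 pools, and that of Top2a (chr11:99024140-99024439, minus strand), whose mean ratio was near 0 with a wide spread.
Bub3: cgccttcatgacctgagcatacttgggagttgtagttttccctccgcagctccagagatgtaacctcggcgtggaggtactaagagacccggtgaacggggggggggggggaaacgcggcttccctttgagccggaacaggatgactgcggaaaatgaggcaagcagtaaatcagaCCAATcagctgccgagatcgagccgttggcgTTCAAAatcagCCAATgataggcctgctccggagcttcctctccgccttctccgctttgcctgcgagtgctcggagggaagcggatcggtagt
Bub1b: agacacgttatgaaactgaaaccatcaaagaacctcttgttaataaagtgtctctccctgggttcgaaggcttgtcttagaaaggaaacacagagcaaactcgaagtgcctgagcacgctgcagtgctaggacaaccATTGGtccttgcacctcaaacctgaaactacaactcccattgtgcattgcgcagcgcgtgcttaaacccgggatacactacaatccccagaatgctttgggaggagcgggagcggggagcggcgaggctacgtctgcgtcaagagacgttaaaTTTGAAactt
Top2a: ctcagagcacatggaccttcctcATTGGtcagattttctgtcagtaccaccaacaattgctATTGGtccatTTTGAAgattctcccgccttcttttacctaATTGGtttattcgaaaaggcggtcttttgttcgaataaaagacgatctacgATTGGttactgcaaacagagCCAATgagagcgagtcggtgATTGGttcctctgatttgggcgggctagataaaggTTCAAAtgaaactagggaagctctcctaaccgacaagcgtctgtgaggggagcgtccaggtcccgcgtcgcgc
Bub3 held 1 CHR match and 2 CCAAT boxes, and Bub1b held 1 of each. Among other mitosis genes above 0 in 6 of 6 pools, the window of Smc2 held 2 CHR matches and 1 CCAAT box. Those of Pttg1 and Birc5 held none of the motifs. Top2a held 2 CHR matches and 6 CCAAT boxes, more of these letters than Bub3 or Bub1b, at a ratio near 0.

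The motifs were spread unevenly over the classes. Of 24 windows of 20 replication genes, 62.5% held an E2F match and 12.5% a CHR match. Of 24 windows of 23 mitosis genes, 12.5% held an E2F match and 62.5% a CHR match, and each of the latter also held a CCAAT box. Among the 32851 windows of all genes in the table, which have the same length, 8.07% held an E2F match, 17.9% a CHR match, 37.4% a CCAAT box and 6.95% both of the last. A CCAAT box was found in 58.3% of the replication and 83.3% of the mitosis windows. An E2F match can share letters with a CCAAT box on the other strand, and without such overlaps the E2F shares were 58.3% for replication, 8.33% for mitosis and 7.69% for all windows. A match is a run of letters and not a bound site.

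**Figure D2:**
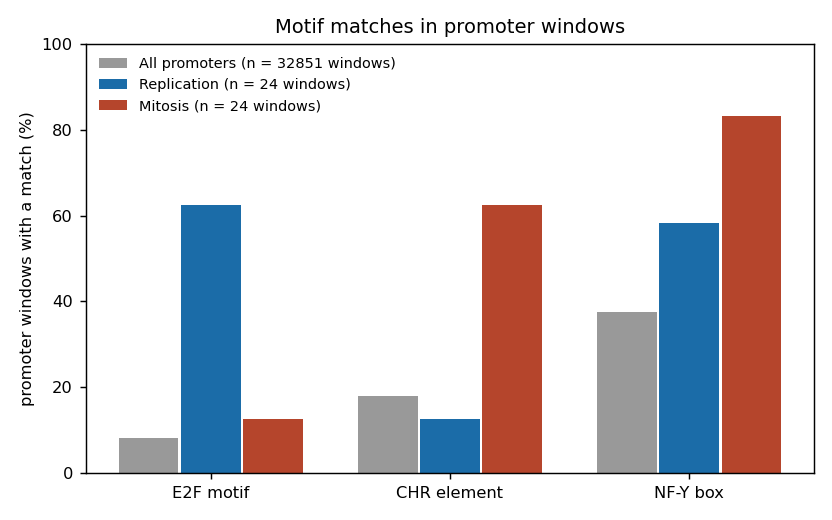
Share of promoter windows (y axis, percent) with at least 1 match to the E2F motif, the CHR element or the CCAAT box of NF-Y (x axis), for all promoters and for the replication and mitosis genes. The E2F bar is highest for replication (62.5%) and the CHR bar for mitosis (62.5%), against 8.07% and 17.9% of all windows.

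The members' ratios were also set out by motif. The 15 tested members with an E2F match had a median of 0.19, the 17 with a CHR match 0.19 and the 9 with none of the motifs 0.17. Outside the cell cycle lists the 1263 genes with an E2F match had a median of 0.02, the 1346 with a CHR match 0.01 and the 3818 with none 0.01. These medians are descriptions, since a gene can hold several of the motifs.

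**Figure D3:**
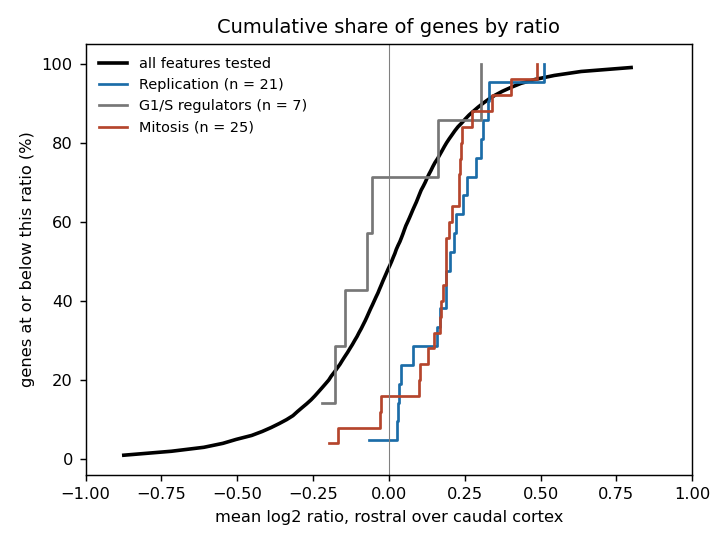
Cumulative share of genes (y axis, percent) at or below each mean log2 ratio of rostral over caudal cortex (x axis, relative to the median of each array), for all features tested and for the members by class. The curves of replication and mitosis run together to the right of that of all features, with medians of 0.20 and 0.19 against 0.01, and that of the 7 G1/S regulators lies near or left of it over most of its range.

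By pool, the median of the 53 members was 0.08, 0.02 and 0.27 in MF1 pools 1 to 3 and 0.19, 0.09 and 0.25 in C57 pools 1 to 3, while that of all features stayed between -0.02 and 0.03. It was above that of all features in each pool, and MF1 pool 2 was the nearest to 0, with 27 of 53 members above it. The other pools had between 32 and 45 above 0. Replication genes had medians from -0.04 in MF1 pool 2 to 0.28 in C57 pool 3, and mitosis genes from 0.03 in MF1 pool 2 up to 0.36, reached by MF1 pool 3. Across the 52 members with all pools, the median correlation between pairs of members over the 6 pools was 0.14, a description over few points that share arrays.

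The shift was not the same on both arrays of a pool. In MF1 the arrays with rostral RNA in Cy3 had member medians of 0.20, 0.12 and 0.40 and those with it in Cy5 of -0.06, -0.14 and 0.18. In C57 the order was turned, with -0.05, -0.10 and 0.08 in Cy3 and 0.47, 0.32 and 0.41 in Cy5. Of the 12 arrays, 8 had a member median above 0. Averaged by strain and dye, 45 of 53 members were above 0 in MF1 with Cy3 and 28 with Cy5, against 29 in C57 with Cy3 and 47 with Cy5. The medians of all features in these 4 sets lay between -0.04 and 0.03. Over both strains, 35 members were above 0 in both orientations, 4 below in both and 14 on opposite sides. Across member probes, the turned ratios of the 2 arrays of a pool had Spearman correlations of 0.38, 0.09 and 0.68 in MF1 and of 0.27, -0.14 and -0.01 in C57, a description across 59 to 61 probes that are not independent. The part of the dye in the size of the members' ratios was not tested.

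**Figure D4:**
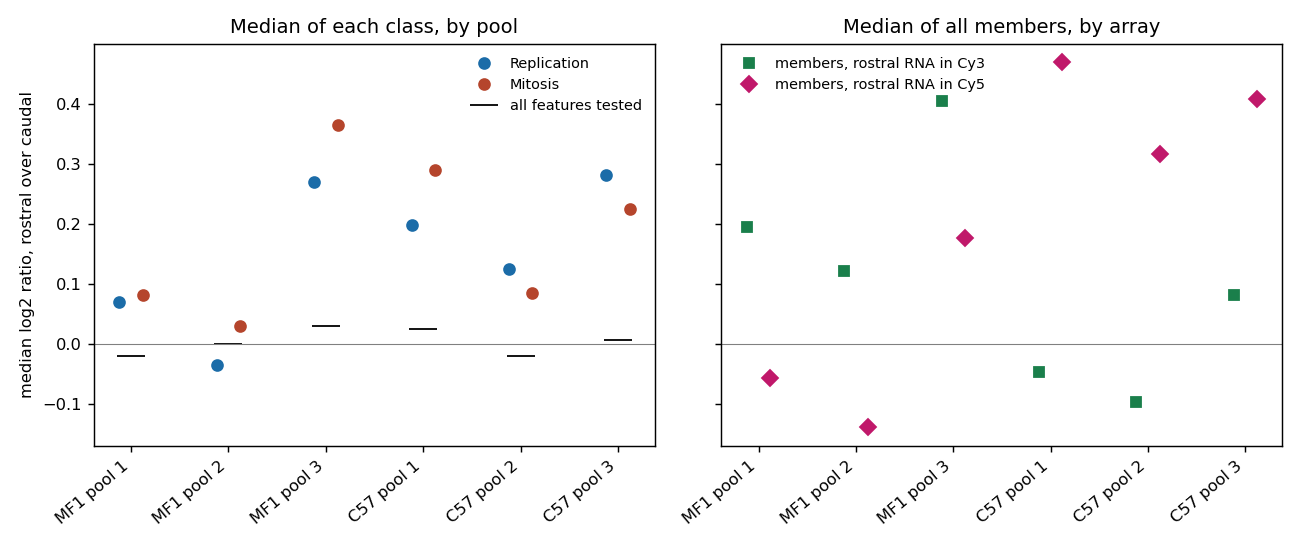
Median log2 ratio of rostral over caudal cortex (y axis, relative to the median of each array) by pool (x axis). Left, replication and mitosis members in each pool, with a dash for all features tested; right, all members on each array, by the dye of the rostral RNA. In MF1 the Cy3 arrays are the higher ones and in C57 the Cy5 arrays, and 8 of 12 arrays lie above 0.

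The strains were compared to see whether the pattern held in both. The members' median was 0.14 in MF1 and 0.18 in C57, and 43 members were above 0 in MF1 and 41 in C57. The MF1 median was 0.06 without MF1 pool 3 and -0.08 without centring. In both strains 37 were above 0 and 6 below, and 10 lay on opposite sides. In MF1 3 members had an unadjusted p under 0.05 above 0, where 2.37% of all features did, and in C57 5 did, where 4.23% of all features did. With limma 0 of 14418 features passed the adjusted threshold in MF1 (0%) or in C57 (0%). Ccna2 had the highest MF1 mean, at 0.64 ± 0.47 (SD, n = 3) against 0.34 ± 0.23 in C57. Rrm2 had the highest C57 mean, at 0.65 ± 0.26 against 0.37 ± 0.26 in MF1.

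For the difference between the strains 0 features (0%) passed with limma, and 0 members had an unadjusted p under 0.05, where 6.1% of all features did. The members' smallest adjusted p for it was 0.944. Replication genes had medians of 0.10 in MF1 and 0.27 in C57, and mitosis genes of 0.15 and 0.16. Cdk2, at 0.23 in MF1 and -0.58 in C57, and Cdk4, at -0.40 and 0.26, were the members farthest apart. The lowest pool of each rests on 1 array, as given above. The log2 ratios of the C57 arrays were wider than those of the MF1 arrays, with an SD, taken from the median absolute deviation, of 0.74 against 0.49. As each array held 1 strain, strain and set of arrays cannot be told apart.

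**Figure D5:**
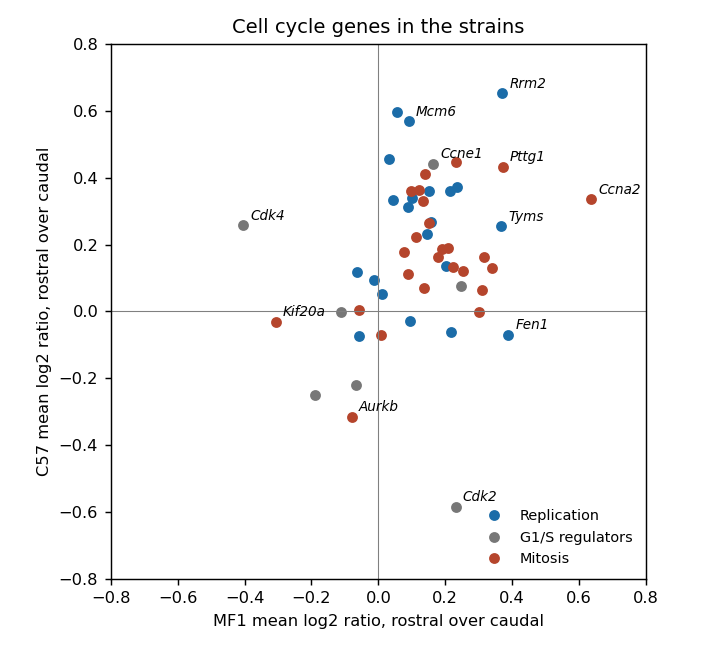
Mean log2 ratio of rostral over caudal cortex in C57 (y axis) against MF1 (x axis) for each tested member, relative to the median of each array, coloured by class with some genes named. Most points lie in the upper right area (37 of 53), and 10 lie on opposite sides of 0 in the strains.

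Cell cycle genes outside the set were described in the same way. Of all features, 51.6% had a mean above 0, and 4.34% lay above and 4.64% below 0 at an unadjusted p under 0.05. Of 48 other replication genes tested, 34 were above 0, with a median of 0.07, and 1 of them, Rfc5, a subunit of the clamp loader, had an unadjusted p under 0.05, at 0.76 ± 0.42 (SD, n = 5) with 5 of 5 pools above 0. Dnmt1, the maintenance DNA methyltransferase, was at 0.24 ± 0.21 in 6 of 6 pools. On the lower side Orc4, an origin subunit, was at -0.14 ± 0.16, and Slbp, which binds histone mRNA, at -0.37 ± 1.05 with C57 pool 2 at -2.41. Of 78 other mitosis genes 58 were above 0, with a median of 0.17, 7 with an unadjusted p under 0.05 above 0 and 0 below. Psrc1, a microtubule protein, was at 0.42 ± 0.18 in 6 of 6 pools and Cenpp, a centromere protein, at 0.43 ± 0.37 in 5 of 6. Cenpw, also of the centromere, was at -0.51 ± 0.53 (n = 5), and Mastl, the Greatwall kinase, at -0.27 ± 0.26. Their adjusted p in limma was 0.409 or more.

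Genes that slow the cycle or mark exit from it were mixed, with 11 of 20 above 0, a median of 0.04, and 3 above and 2 below 0 at an unadjusted p under 0.05 (4.34% and 4.64% of all features). Gas1, a membrane protein known from growth arrest and as a receptor partner for hedgehog signals, had ratios of 1.15, 0.96 and 0.42 in MF1 and of 0.48, 1.01 and 0.82 in C57. All pools lay above 0, and the mean of 0.81 ± 0.30 (limma, adjusted p = 0.328) was larger than that of any member. Ccng2, a cyclin linked to cell cycle arrest, was at 0.36 ± 0.15 in 6 of 6 pools. Below 0 in every pool measured were Btg1, an antiproliferative factor, at -0.46 ± 0.30, and the Cdk inhibitor Cdkn1a (p21), at -0.41 ± 0.32 (n = 5).

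Markers of the cells in the dissected tissue stood beside these values as follows. Ratios give no levels, so the presence of a cell type could not be read from them. Pax6, a transcription factor of apical progenitors that is also 1 of the 9 rostral reference genes behind the direction, was at 0.40 ± 0.18 in 6 of 6 pools (limma, adjusted p = 0.471), while Eomes, of intermediate progenitors, was at 0.03 ± 0.36 and the neuronal tubulin Tubb3 at 0.00 ± 0.55. As lists, apical progenitor genes had 13 of 18 above 0 and a median of 0.06, with pool medians from -0.06 to 0.28, means from -0.50 to 0.49, and 3 genes above and 2 below 0 at an unadjusted p under 0.05. Intermediate progenitor genes had 10 of 13 and 0.11 (pools -0.01 to 0.38), and postmitotic neuron genes 10 of 22 and -0.02 (pools -0.25 to 0.07). At that threshold the former had 3 genes above and 0 below 0 and the latter 1 and 1, against 4.34% and 4.64% of all features. Genes of the ventral telencephalon had 5 of 12 above 0 with a median of -0.03, those of meninges and mesenchyme 4 of 15 with -0.08, those of blood vessels 5 of 12 with -0.02, those of microglia 4 of 9 with -0.03 and those of red blood cells 2 of 6 with -0.12. In the same order, 0, 0, 0, 1 and 1 genes of these lists lay above 0 at that threshold, and 1, 3, 1, 0 and 0 below. Choroid plexus genes had 0 of 6 above 0 and a median of -0.56, with C57 pool 3 at -1.75 and the other pools from -0.10 to -0.53. Of them, 3 lay below 0 at that threshold. The part of these cell types in the members' ratios was not tested.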

How the data were processed

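RNA was extracted with Trizol, per the labels, and its cDNA amplified with the SMART method, per the series' design text. The deposited values are log2 ratios between the dyes of each array, as read from the values; how images and background were treated and which channel was the numerator was not given in the sources used here. On 12 arrays there were 21998 probes. The 701 values at the ceiling of 16.61 were treated as missing, and each array (medians -0.41 to 0.475) was centred on its median. Depth does not apply to arrays; their number limits the precision.

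Arrays with rostral RNA in Cy3 were turned, with Cy5 over Cy3 assumed. Deviations of dye-swapped partners correlated at -0.25, -0.22 and -0.35 in MF1 and -0.15, -0.16 and 0.00 in C57. Caudal and rostral reference genes had medians of -0.38 and 0.19. Of the caudal ones 4 of 5 were below 0, and of the rostral ones 6 of 9 were above 0, where 51.6% of all features were above 0. The 2 arrays of a pool were averaged (1 replicate), then probes of a gene; at least 2 pools per strain were needed. Limma 3.58.1 in R 4.3.3 (lmFit, eBayes, a mean per strain) gave p-values with Benjamini-Hochberg adjustment over 14418 features, and was tested on simulated data. Probes with 1 symbol in the platform annotation numbered 16864, with several 139 and with none 4995; 16184 Entrez identifiers matched RefSeq and 0 symbols were replaced.

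Members, gene lists and role groups were chosen with earlier results of these data known. Named with values are members of 1 sign in every pool (at least 5 pools), the 2 of smallest p per side in each class, the 2 per side in each wider list, and Pax6, Eomes and Tubb3; other genes were named after their values were seen. Equal pool numbers of different strains did not pair (correlations of deviations -0.14, 0.06 and 0.00). Alternatives were no centring, scaling, ceiling values kept, 1 dye orientation, a fit of 12 arrays, complete features, 1 pool per strain, separate probes, a replicate block and leaving out each pool.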

Additional observations from a re-analysis of the deposited data

Results flagged for a closer look

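Among 53 members, 12 genes of the wider lists and 4 medians of the members and their classes, a pool stood apart from the other 5 by Dixon's test in 3 genes; chance marks about 1 in 20. Cks1b was at -0.347 in MF1 pool 1, with the other pools between -0.03 and 0.05. These values average 2 probes that differed, at 0.01 and -0.70 in MF1 pool 1 and at 0.46 and -0.36 in C57 pool 1. In MF1 pool 2 only 1 of the probes had a value. Ube2c was at 1.146 in MF1 pool 3, with the others between -0.12 and 0.32. Slbp was at -2.406 in C57 pool 2, with the others between -0.50 and 0.48.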

How the results depend on the processing

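Without centring the median of all features moved to -0.18 and 6.64% of features with an unadjusted p under 0.05 lay above 0, in place of 48.3%. The members' median was then -0.0018, that of replication genes 0.012, of mitosis genes -0.0018, of members in MF1 -0.075 and in C57 0.015. Of the 53 members, 24 were above 0, in place of 43. Among the 18 members followed singly through the alternatives, Mcm2 (-0.000083), E2f1 (-0.028) and Smc2 (-0.00058) turned sign. The count of members with an unadjusted p under 0.05 above 0 was 0. With rostral RNA in Cy3 alone that count was 4 and the C57 median 0.024; with Cy5 alone the count was 11, the C57 median was 0.41 and Aurkb turned to 0.16. Features past the adjusted threshold in C57 numbered 188 with Cy3 alone and 118 with Cy5 alone, settings in which dye and region cannot be told apart. They numbered 8 in limma's fit of the 12 arrays, which held pool as random block and a dye term for each strain. For both strains they numbered 6 among features complete on 12 arrays and 21 in the fit of the 12 arrays (consensus correlation 0.28). That fit gave 14 members with an unadjusted p under 0.05 above 0. Leaving out each pool gave 4 to 5 such members, and medians of 0.14 to 0.23 for all members, 0.17 to 0.24 for replication, 0.14 to 0.23 for mitosis, 0.06 to 0.20 in MF1 and 0.14 to 0.25 in C57. With the pool number as a replicate block, 0 features passed for the strain difference.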
